A study of Mus musculus with 12 samples.

Results

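Vehicle islets are pancreatic islets of C57BL/6J mice, an inbred laboratory strain, that were kept in culture with vehicle, the liquid in which a drug is added, and with neither drug nor cytokine. They make up 3 of the 12 libraries of a series with 4 treatment groups, and were taken by the agent that the labels name. The other groups received cytokines and ML351 together, cytokines, or ML351, and are not described here. The islets came from pancreata perfused with collagenase, an enzyme that digests the connective tissue around them, and the labels give 24 hours as the time of treatment. The sources used here give neither the age nor the sex of the mice, nor which liquid served as vehicle. Nothing in the labels says that the libraries, numbered 1, 2 and 4, came from separate animals or cultures, so the spread between them may be technical.

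Islets are small groups of hormone-secreting cells in the exocrine pancreas. Beta cells make insulin, alpha cells glucagon, delta cells somatostatin, PP cells pancreatic polypeptide and the rare epsilon cells ghrelin. Endothelial cells, macrophages, nerve fibres and stellate cells lie among them, and collagenase isolation can leave acinar and duct cells attached. In RNA from whole islets, fewer cells of a type and less RNA per cell cannot be told apart.

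The table held read counts of 14089 genes. The vehicle libraries had 23519151, 20664596 and 22331264 counts in replicates 1, 2 and 4, and every list of 3 values in what follows keeps that order. A level is given as CPM, the count divided by the library total and scaled to 1000000, and 1 count was worth 0.0425 to 0.0484 CPM. CPM compare libraries for 1 gene, and the order of levels between genes is read from CPM per kilobase of the gene's principal transcript. A rank said to be by CPM is a rank of counts. On average 12464 genes reached 1 CPM, 8354 reached 10 CPM, 1287 reached 100 CPM, 38 reached 1000 CPM and 4 reached 10000 CPM. Of all genes 13888 had a count in each vehicle library and 34 had none in any. Protein-coding genes held 99.6% of the counts.

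A few hormone genes held a large part of the RNA. Ins2, a gene for insulin, alone took 24.0%, 23.4% and 25.5% of the counts, or 24.3% ± 1.06 (SD, n = 3). With Ins1, the other mouse insulin gene, the share was 31.6%, 31.0% and 33.5%. The 10 most abundant genes took 42.1% ± 1.35 and the 100 most abundant 50.6% ± 1.18 (SD, n = 3 each). Replicate 4 had the highest share and replicate 2 the lowest at each of these depths. The plot of cumulative shares shows the lines of the 3 libraries in that order.

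**Figure D1:**
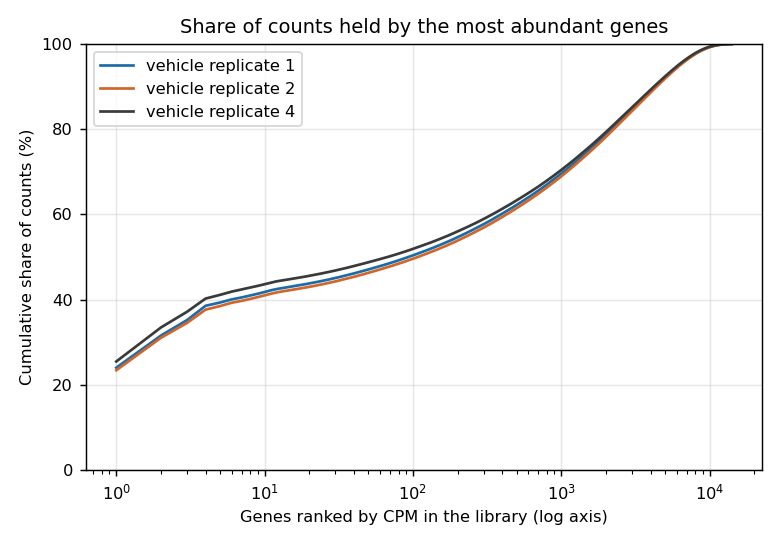
Cumulative share of counts (percent, y axis) against genes ranked by CPM within a library (x axis, log scale), 1 line for each of the 3 vehicle libraries. The first gene is Ins2, at 23.4% to 25.5% of the counts, and 1000 genes hold 69.6% on average.

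Insulin led the hormones. Ins2 stood at 240331, 234374 and 254890.0 CPM and Ins1 at 75365, 76054 and 79818 CPM. Replicate 4 was highest for both, and the ratio of Ins2 to Ins1 counts stayed at 3.19, 3.08 and 3.19, or 3.65 ± 0.0732 per kilobase (SD, n = 3). Ins2 lies on chromosome 7 (GRCm38, 142678656 to 142743381, minus strand), a span that is long for its principal transcript of 918 bases, and Ins1 on chromosome 19 (52264297 to 52265476, plus strand). Their messages are alike, so reads shared between them could have been split or dropped when they were counted, and each level is uncertain to that extent.

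Gcg, which encodes glucagon and on chromosome 2 spans 62474530 to 62483650, had 36402, 35099 and 36904 CPM. Iapp, the gene of islet amyloid polypeptide that beta cells secrete with insulin, had 33536, 31054 and 30973 CPM. Gcg was above Iapp in each library by CPM, while per kilobase Iapp was higher, at 37967 ± 1736 CPM per kilobase against 33212 ± 856 for Gcg (SD, n = 3 each), with ranges that did not overlap. The order therefore depends on the transcript lengths of 839 bases for Iapp and 1088 bases for Gcg.

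Ppy, for pancreatic polypeptide, had 7565, 8288 and 8592 CPM. Pyy, for the related peptide YY, had 2857, 3041 and 2871 CPM and lies beside Ppy on chromosome 11, at 102106676 to 102107832 against 102099930 to 102101319 for Ppy. Sst, for somatostatin, had 1257, 1283 and 1253 CPM, with a standard deviation of only 16.4 CPM. Gcg exceeded Sst by 29.0, 27.4 and 29.5 times in counts, and by 18.9 ± 0.728 times per kilobase (SD, n = 3). It exceeded Ppy by 4.81, 4.23 and 4.29 times in counts, and by 2.04 times per kilobase on average. These are ratios of RNA, and numbers of cells were not measured.

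Other peptides had lower levels per kilobase than Sst. Ucn3, urocortin 3, which mature mouse beta cells secrete, had 619.8, 613 and 648 CPM. Pdyn, the precursor of dynorphins, had 245, 280.2 and 221 CPM. Vgf, a granule protein cleaved into several peptides, had 47.5, 43.6 and 38.6 CPM, and Edn3, endothelin 3, had 30.1, 32.4 and 25.1 CPM. Npy, neuropeptide Y, had 9.78, 11.8 and 8.91 CPM. Ghrl, the ghrelin gene of epsilon cells, had only 3.02, 6.24 and 5.87 CPM, lowest in replicate 1.

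Per kilobase the hormone order was Ins2, Ins1, Iapp, Gcg, Ppy, Pyy, Sst, Ucn3 and Pdyn, at 264922, 72579, 37967, 33212, 16297, 5267, 1754, 424 and 104 CPM per kilobase. No neighbours in that order overlapped in range over the 3 libraries. Npy and Vgf came next at 17.9 and 15.3 CPM per kilobase, and their ranges did overlap. Of 27 hormone and peptide genes listed, 24 had a row in the table of 14089 genes and 9 were at 100 CPM or more. Nppa, Nppc and Gip had no row and are not analysed here. The 24 genes together held 398281, 390196 and 416259 CPM, or 40.2% of the counts, and the least abundant was Nts, neurotensin, at 0.213, 0.0484 and 0 CPM.

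**Figure D2:**
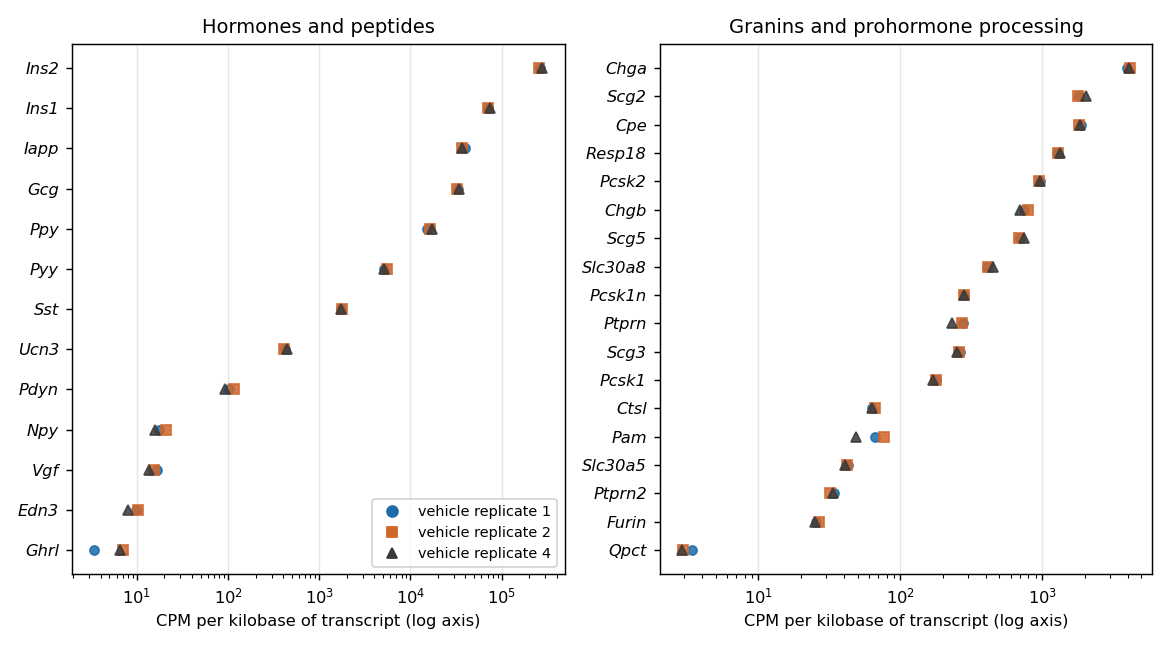
CPM per kilobase of transcript (x axis, log scale) of the 13 most abundant hormone and peptide genes (left) and of 18 genes of granins and prohormone processing (right), 1 point for each of the 3 vehicle libraries. Points of a gene lie close together from Ins2 down to Ucn3, and are farther apart for Ghrl, whose 3 libraries stood at 3.02, 6.24 and 5.87 CPM.

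The machinery that packs and cuts prohormones was abundant as well. All 18 listed genes had a row, 17 were at 100 CPM or more, and their sum of 29280, 29647 and 29752 CPM varied by 0.838% (coefficient of variation, the SD as a percent of the mean) and made up 2.96% of the counts. Chga, chromogranin A, a major protein of the granule core, had 7419, 7839 and 7703 CPM. Scg2, secretogranin II, had 4537, 4514 and 5087 CPM, highest in replicate 4. Chgb, chromogranin B, had 2032, 2184 and 1923 CPM.

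Pcsk2, the convertase that cuts proinsulin and proglucagon, had 4545, 4512 and 4542 CPM, a coefficient of variation of 0.412%. Pcsk1, the convertase that cuts proinsulin before Pcsk2 does, had 899, 901 and 857 CPM. Pcsk2 exceeded Pcsk1 by 5.06, 5.01 and 5.30 times in counts and by 5.47 ± 0.167 times per kilobase (SD, n = 3). Cpe, carboxypeptidase E, which trims the basic residues that the convertases leave, had 3997, 3818 and 3883 CPM. Slc30a8, the zinc transporter that loads insulin granules, had 807, 813 and 885 CPM, and Pcsk1n, an inhibitor of Pcsk1, had 614, 617 and 614 CPM.

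Resp18, a granule protein, had 957, 963 and 1002 CPM, and Scg5, the chaperone of Pcsk2, had 841, 826 and 894 CPM. Ptprn, a protein of the granule membrane and an autoantigen of human type 1 diabetes, had 979, 963 and 827 CPM, lowest in replicate 4. Scg3, secretogranin III, had 628, 614 and 596 CPM. Per kilobase Chga came first at 4065, followed by Scg2 at 1874 and Cpe at 1842, whose ranges overlapped. Qpct, which forms pyroglutamate at peptide ends, was the lowest of the group at 6.97, 6.05 and 5.96 CPM.

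The RefSeq promoters of 7 hormone and granin genes among the 20 highest per kilobase are shown. Of the 20 genes highest per kilobase, 15 had a window of 250 bases before to 50 after the start in the RefSeq table for GRCm38.p6, and Ins2 was without an entry. Each sequence below is written 5′ to 3′ on the gene's strand. Capitals mark TATAA with its first base between positions −40 and −20, and TGACGT on either strand, the core of the site bound by CREB-type factors. The windows are chr2:62483604-62483903 (minus) for Gcg, chr6:142298175-142298474 (plus) for Iapp, chr11:102101270-102101569 (minus) for Ppy, chr11:102107783-102108082 (minus) for Pyy, chr12:102554691-102554990 (plus) for Chga, chr1:79439977-79440276 (minus) for Scg2 and chr16:23890795-23891094 (minus) for Sst.
Gcg: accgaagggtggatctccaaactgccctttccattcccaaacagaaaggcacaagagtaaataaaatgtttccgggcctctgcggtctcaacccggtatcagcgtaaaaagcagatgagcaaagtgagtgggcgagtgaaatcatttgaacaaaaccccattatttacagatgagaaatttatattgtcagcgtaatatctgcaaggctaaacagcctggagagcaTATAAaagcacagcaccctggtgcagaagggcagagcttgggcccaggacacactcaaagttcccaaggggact
Iapp: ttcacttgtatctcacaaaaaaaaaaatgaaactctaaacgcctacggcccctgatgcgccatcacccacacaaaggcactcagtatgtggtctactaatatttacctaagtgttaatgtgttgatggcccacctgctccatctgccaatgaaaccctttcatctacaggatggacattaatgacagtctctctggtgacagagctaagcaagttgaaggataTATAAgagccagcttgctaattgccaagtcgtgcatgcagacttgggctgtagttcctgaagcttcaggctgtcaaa
Ppy: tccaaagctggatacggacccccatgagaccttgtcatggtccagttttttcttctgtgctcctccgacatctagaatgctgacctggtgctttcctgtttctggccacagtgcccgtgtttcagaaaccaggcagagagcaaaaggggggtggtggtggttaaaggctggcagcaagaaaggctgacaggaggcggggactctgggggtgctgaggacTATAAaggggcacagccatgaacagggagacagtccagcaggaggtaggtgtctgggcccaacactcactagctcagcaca
Pyy: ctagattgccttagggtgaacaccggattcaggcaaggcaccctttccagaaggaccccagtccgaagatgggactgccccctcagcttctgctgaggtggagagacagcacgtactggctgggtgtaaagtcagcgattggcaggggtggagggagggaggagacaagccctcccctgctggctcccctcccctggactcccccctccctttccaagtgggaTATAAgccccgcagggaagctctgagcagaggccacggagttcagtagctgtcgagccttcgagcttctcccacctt
Chga: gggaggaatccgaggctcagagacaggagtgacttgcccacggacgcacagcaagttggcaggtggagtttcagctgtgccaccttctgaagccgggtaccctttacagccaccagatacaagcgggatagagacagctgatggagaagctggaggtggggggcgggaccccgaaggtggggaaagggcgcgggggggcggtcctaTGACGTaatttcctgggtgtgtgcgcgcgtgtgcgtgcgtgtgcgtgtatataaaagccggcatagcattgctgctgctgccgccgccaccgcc
Scg2: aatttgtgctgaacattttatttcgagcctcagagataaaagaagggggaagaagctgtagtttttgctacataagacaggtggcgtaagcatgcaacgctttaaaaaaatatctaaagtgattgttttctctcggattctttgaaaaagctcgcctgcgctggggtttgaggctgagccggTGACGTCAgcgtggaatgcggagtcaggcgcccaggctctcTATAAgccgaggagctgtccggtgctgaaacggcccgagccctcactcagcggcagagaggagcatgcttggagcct
Sst: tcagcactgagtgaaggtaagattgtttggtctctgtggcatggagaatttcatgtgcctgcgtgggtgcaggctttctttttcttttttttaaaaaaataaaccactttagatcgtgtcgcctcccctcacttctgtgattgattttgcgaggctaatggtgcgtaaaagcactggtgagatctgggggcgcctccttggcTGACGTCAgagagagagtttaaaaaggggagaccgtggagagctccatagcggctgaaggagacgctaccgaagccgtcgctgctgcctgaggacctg

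Positions count bases before the RefSeq start. TATAA stood at −24 in Gcg, −27 in Iapp, −31 in Ppy, −27 in Pyy and −27 in Scg2, and not in Chga or Sst within those positions. The Chga window does hold TATAA just after the RefSeq start. The GENCODE start of Chga, 102554969, lies farther downstream, so for Chga the absence of TATAA and the motif positions depend on the start used. Scg2 and Sst lie on the minus strand, and their GENCODE spans begin at 79440120 and 23890958, upstream of the motifs marked in them. Their motif positions therefore depend on the start used as well. All counts of windows use the RefSeq start alone. Among the 20 genes highest per kilobase 5 of 15 windows (33.3%) held TATAA, against 309 of 10692 windows (2.89%) over all genes with one. The share was 9 of 80 in the 100 highest genes and 33 of 774 (4.26%) in the 1000 highest. In the hormone list 5 of 21 windows held it, in Gcg, Iapp, Ppy, Pyy and Gast. In the transcription factor list 1 of 31 did, in Neurod1. Letters that match are a description and not a bound site.

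TGACGT was found at −44 in Chga. In Scg2 and Sst it was part of TGACGTCA, which reads the same on both strands and so was counted at −68 and −66 in Scg2 and at −48 and −46 in Sst. Among granin and processing genes 7 of 15 windows (46.7%) held TGACGT, namely Chga, Scg2, Chgb, Pcsk1, Scg5, Slc30a5 and Furin. Over all genes 1404 of 10692 (13.1%) held it, and in the hormone list 3 of 21, in Sst, Cartpt and Adcyap1. The letters CATCTG, a form of the E box that NEUROD1 can bind, were also searched on either strand. They stood in 8 of 21 hormone windows (38.1%), including Ins1, Gcg, Iapp and Ucn3, and in 1512 of 10692 over all genes (14.1%). In Gcg they lie on the strand opposite to the one printed. None of the 15 granin and processing windows held CATCTG.

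The genes outside hormones and granules that reached the top 20 by CPM included genes of protein folding, lipid synthesis and glucose handling. Acly, ATP citrate lyase, which makes cytosolic acetyl-CoA, had 4213, 4355 and 3870.0 CPM, lowest in replicate 4. Hspa5, the chaperone BiP of the endoplasmic reticulum, had 1897, 1841 and 1849 CPM. P4hb, a protein disulfide isomerase, had 1571, 1542 and 1489 CPM, and Ero1lb, an oxidase of the endoplasmic reticulum that helps proinsulin fold, had 1438, 1416 and 1501 CPM. Ftl1, ferritin light chain, had 1657, 1648 and 1718 CPM. G6pc2, the glucose-6-phosphatase of beta cells, had 1712, 1652 and 1657 CPM.

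Lars2, the leucyl-tRNA synthetase of mitochondria, had 4009.8, 3895 and 3753 CPM and was the 11th gene by CPM. Maged1 had 1407, 1487 and 1420.2 CPM and Prss53, a serine protease, 1480.0, 1365 and 1447 CPM. Of the 20 highest per kilobase, 14 were also among the 20 highest by CPM. The others were Sst, Resp18, Mir6236, Cd63, Eif4g2 and Tmem27, at 1754, 1302, 1168, 1045, 995 and 868 CPM per kilobase. Mir6236 is 123 bases long, so its CPM per kilobase are above its CPM. With the union of all exons as length, Cd63, Eif4g2 and Lars2 left the 20 highest. The principal transcript of Eif4g2, a translation initiation factor, is 742 bases against 10166 for that union, and that of Lars2 3894 against 11089. Rn45s, the ribosomal RNA precursor, chosen after its values were seen, had 790.1, 752 and 531 CPM, and its length was not used here. Lars2, Mir6236 and Rn45s may share reads, so their levels cannot be read as those of their own transcripts alone, and this was not tested.

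The transcription factors of the endocrine pancreas summed to nearly the same level in each library. Of 51 listed, 46 had a row, 41 were at 1 CPM or more, 35 at 10 CPM or more and 7 at 100 CPM or more. Their sum was 2200.3, 2219 and 2222 CPM, a coefficient of variation of 0.539%. Single members varied more, with a median of 5.42% over the 46 with a row. The median was 7.95% over all genes and 5.32% over all genes at 10 CPM or more. Pax4, Foxa1, Onecut1, Bhlhe22 and Lmx1a had no row and are not analysed here.

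Mafa, an activator of insulin genes in mature beta cells, had 163, 162 and 172 CPM. Pax6, needed for all endocrine types, had 156, 168 and 164 CPM, and Isl1, a LIM homeodomain factor of the same cells, had 154, 151 and 155 CPM. Insm1 had 139, 140.5 and 145 CPM and Neurod1, which binds E boxes of the insulin genes, had 140.1, 131 and 133 CPM. Tshz1 had 141, 136 and 131 CPM and St18 104, 110.4 and 104 CPM. These were the 7 factors at 100 CPM or more.

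Pdx1, the homeodomain factor of beta and delta cells, had 69.3, 69.9 and 72.8 CPM. Nkx6-1, confined to beta cells among adult islet cells, had 57.9, 60.2 and 65.4 CPM, and Nkx2-2 had 79, 78.7 and 90.5 CPM, highest in replicate 4 in both cases. Rfx6 had 85.5, 90.1 and 94.7 CPM, Foxo1 68.8, 75.2 and 70.5 CPM and Zbtb20 80.2, 78.2 and 66.1 CPM. Hhex, a factor of delta cells, had 10.7, 12.6 and 12.6 CPM.

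Per kilobase Isl1 at 61, Mafa at 60.5 and Pax6 at 56.7 led, and the ranges of Isl1 and Mafa overlapped. Neurod1 at 49.4, Insm1 at 45.7 and Nkx2-2 at 39 followed, then Pdx1 at 32.7 and Foxa2 at 32.3, again with ranges that overlapped. Neurog3, which drives endocrine progenitors in the embryo, was still counted at 4.63, 4.02 and 4.39 CPM, with 3.87 to 4.89 CPM as the exact 95% Poisson interval of the pooled count. Sox9, a factor of duct and progenitor cells, had 1.4, 1.5 and 1.03 CPM. Nkx6-2 had 0.376 ± 0.132 CPM (SD, n = 3).

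Among receptors for hormones, transmitters and nutrients, Glp1r, the receptor of the incretin GLP-1, had 364, 406 and 365 CPM. Adgrg1, an adhesion receptor also known as GPR56, had 279, 291 and 279 CPM. Sstr3, a somatostatin receptor, had 104, 108 and 101 CPM. These 3 were the members at 100 CPM or more, 21 of the 44 genes with a row were at 10 CPM or more, and 6 of the 50 listed had no row. Per kilobase Adgrg1 was above Glp1r, at 78.2 ± 1.96 against 65.1 ± 4.19 CPM per kilobase (SD, n = 3 each).

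Adra2a, the adrenergic receptor that inhibits insulin release, had 81.2, 83.2 and 79.8 CPM. Casr, the calcium-sensing receptor, had 56.9, 65.8 and 63.5 CPM, and Vipr1, a receptor of vasoactive intestinal peptide, had 63.2, 58.8 and 55.7 CPM. Gcgr, the glucagon receptor, had 35.4, 34.6 and 38.5 CPM, and Gipr, the receptor of the other incretin, had 21.5, 16.5 and 21.5 CPM. Gipr was below Glp1r, at 6.95 ± 1.03 against 65.1 ± 4.19 CPM per kilobase (SD, n = 3 each).

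The receptors of fatty acids and their derivatives were a mixed group. Gpr119 had 39.4, 34.9 and 37.9 CPM, Ffar2, for short-chain fatty acids, had 33.1, 35 and 34 CPM, and Ffar1, for long-chain fatty acids, had 27.2, 28.3 and 31.1 CPM. Ffar4, also for long-chain fatty acids, had 13.6, 12.7 and 11.9 CPM. P2ry1, for ADP, had 40.7, 36.3 and 35.3 CPM, and Adora1, for adenosine, had 29, 37.3 and 33.1 CPM. Oxtr, for oxytocin, had 31.3, 33.1 and 32.5 CPM, and Galr1, for galanin, had 29.7, 28.6 and 28.4 CPM. Sstr5 was among the lowest at 0.340, 0.629 and 0.582 CPM, with a Poisson interval of 0.354 to 0.714 CPM.

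Receptors of growth factors and cytokines included some of the highest receptor levels. Il1r1, the receptor of interleukin-1, had 665, 671 and 636 CPM and was first of its group per kilobase, at 113 ± 3.18 (SD, n = 3). Prlr, the prolactin receptor, had 288, 276 and 275 CPM, and Ghr, the growth hormone receptor, had 217, 212 and 201 CPM. Vdr, the vitamin D receptor, had 175, 178 and 177 CPM. Ntrk2, a neurotrophin receptor, had 164, 175 and 159.9 CPM and Ret, the receptor of the GDNF family, 136, 141 and 118 CPM. Of 34 listed, 31 had a row, 24 were at 10 CPM or more and 6 at 100 CPM or more.

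The cytokine receptors ranged widely. Tnfrsf1a, the receptor of tumour necrosis factor, had 61.4, 58.7 and 48.4 CPM, lowest in replicate 4. The chains of the interferon γ receptor, Ifngr1 and Ifngr2, had 25.7, 25.2 and 25 CPM and 15.3, 16.4 and 15.9 CPM. Ifnar1, of type I interferons, had 38.9, 39.97 and 30.9 CPM. Among receptors of insulin and its relatives, Igf2r had 91.8, 114 and 87.3 CPM, Igf1r 64.2, 67.5 and 55.6 CPM and Insr, the insulin receptor, 8.76, 9.34 and 9.31 CPM. Il22ra1 had 0 counts in all 3 libraries, which allows a level of up to 0.0451 CPM.

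Among potassium channel genes, Abcc8, the sulfonylurea receptor that forms the ATP-sensitive channel with Kcnj11, stood apart at 1256, 1329 and 1277 CPM. Kcnj11, the pore of that channel, had 42, 47 and 43 CPM, so that per kilobase Abcc8 was at 264 and Kcnj11 at 14. Kcnk16, the background channel TALK-1, had 122, 119 and 129 CPM and was the second gene per kilobase, at 134. Kcnmb2 and Kcnma1, subunits of the large-conductance calcium-activated channel, had 115, 111 and 114 CPM and 78.3, 83 and 76.9 CPM. Kcnip1, a partner of A-type channels, had 101, 95.6 and 96.6 CPM. Of 39 listed, 30 had a row and 13 were at 10 CPM or more.

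Calcium handling was led by the pumps that fill the endoplasmic reticulum. Atp2a2 had 1379.6, 1391 and 1313 CPM and Atp2a3 980.3, 980.2 and 933 CPM, or 303 and 213 CPM per kilobase. The next gene per kilobase was Stim1, a sensor of stored calcium, at 21.7, with ranges that overlapped those of the store-operated channel Orai3 at 21.5 and the channel subunit Cacnb3 at 20.6. The pores of voltage-gated calcium channels were lower per kilobase, Cacna1d at 3.44, Cacna1a at 1.69 and Cacna1c at 1.49. In CPM, Cacna1d had 27, 33.2 and 29.4 CPM. Cacna1e, Ryr1 and Ryr2 had no row and are not analysed here. The receptors of inositol trisphosphate that release stored calcium, Itpr1 and Itpr3, had 63.7, 69 and 62.2 CPM and 57.6, 66.3 and 59.3 CPM.

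Of 56 other channel genes listed, 46 had a row and 23 were at 10 CPM or more. Gjd2, connexin 36, which couples beta cells electrically, was first per kilobase at 55.8, and had 164, 142 and 176 CPM, lowest in replicate 2. Clcn3, a chloride transporter of granule and endosome membranes, had 109, 118 and 104 CPM. P2rx4, an ATP-gated channel, had 67.1, 75.9 and 74.3 CPM and Glrb, a glycine receptor subunit, 59.4, 58.3 and 65.6 CPM. Trpm5, a cation channel of beta cells, had 35.6, 36.4 and 35.3 CPM. The sodium channel pores Scn9a and Scn3a had 18.6, 21.4 and 19.2 CPM and 16, 17.6 and 16.1 CPM.

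**Figure D3:**
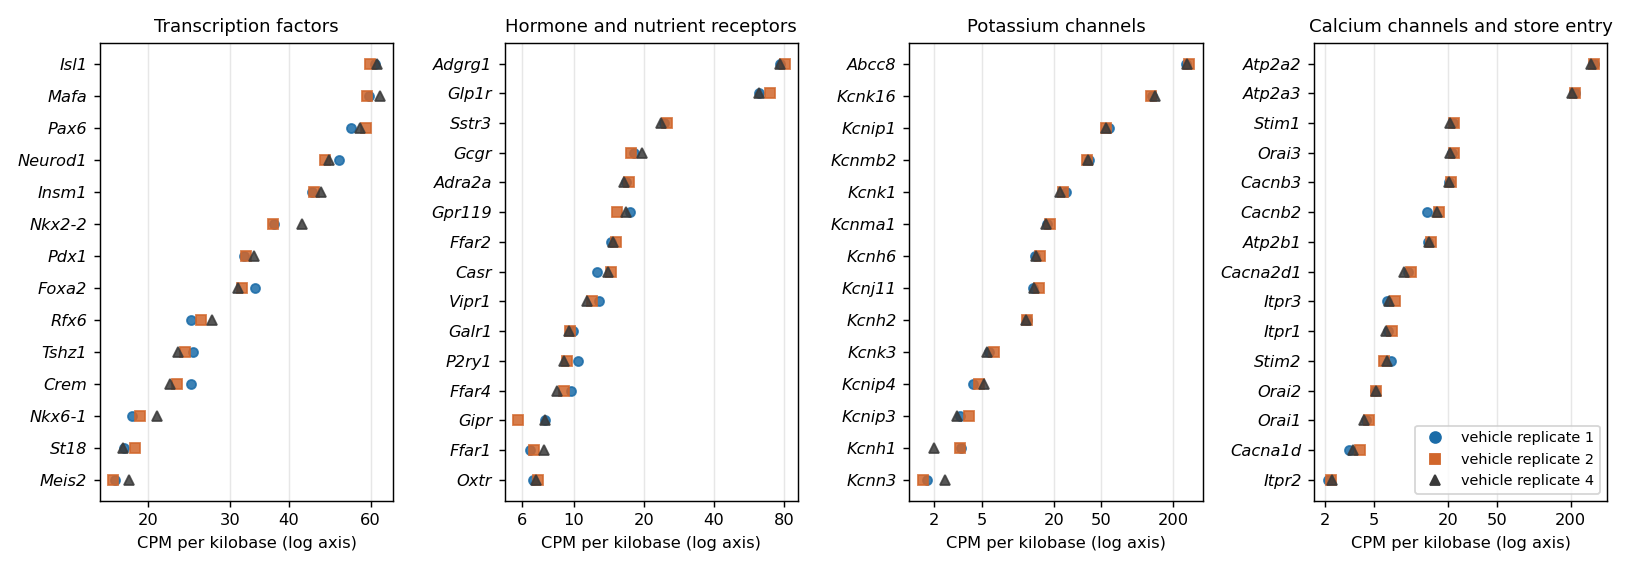
CPM per kilobase (x axis, log scale) of the members highest per kilobase, 14 or 15 in each panel, among transcription factors, hormone and nutrient receptors, potassium channels, and calcium channels and store entry genes, with 1 point for each of the 3 vehicle libraries. Abcc8 at 264 and Atp2a2 at 303 lead the 2 channel panels, while the leading transcription factor, Isl1, is at 61.

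The genes by which glucose is taken up and used were led by G6pc2, whose values are given above. Slc2a2, the transporter GLUT2, had 373, 361 and 382 CPM and Slc2a1, GLUT1, had 31.7, 36.2 and 19.6 CPM. Hk1 and Hk2, the hexokinases of high affinity, had 13.8, 15.3 and 12.2 CPM and 0.638, 0.436 and 0.313 CPM. Pkm, pyruvate kinase, had 1128, 1201 and 1086 CPM, and Pcx, pyruvate carboxylase, had 333, 339.6 and 329 CPM. Mdh1 and Gpd2, which shuttle electrons from the cytosol to mitochondria, had 342, 349.7 and 329.9 CPM and 181, 173 and 183 CPM. Gckr had no row, and 28 of the 29 listed genes did.

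Genes known to be kept low in beta cells had a median of 4.05 CPM over the 26 of 28 with a row, and 8 were at 10 CPM or more. Slc16a1, the lactate and pyruvate transporter MCT1, had 2.64, 2.08 and 1.57 CPM, with a Poisson interval of 1.77 to 2.48 CPM. Acot7 had 6.97, 7.02 and 4.7 CPM, Rest, the repressor of neuronal genes, 0.893, 1.6 and 1.25 CPM and Pdgfra 0.468, 1.5 and 1.12 CPM. Ldha, lactate dehydrogenase A, was higher and varied, at 59.2, 91.9 and 37.9 CPM, highest in replicate 2 and lowest in replicate 4. Dap was the highest of the list per kilobase, at 129, and had 205, 202 and 194 CPM. Cd44 had 63.7, 61.6 and 59.9 CPM.

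Per kilobase, Hspa5 at 507, Xbp1 at 252 and Atf4 at 82.8 were the highest of 23 stress and immediate early genes. Xbp1, a factor of the unfolded protein response, had 534, 534 and 539 CPM, and Atf4, of the integrated stress response, had 146, 146 and 136 CPM. Ddit3, also known as CHOP, had 19, 20.8 and 18.4 CPM. Txnip, which glucose induces, had 50.9, 53.1 and 57.9 CPM, and Hmox1, heme oxygenase, had 61.7, 69.4 and 48.1 CPM. The immediate early genes Junb, Egr1 and Fos had 40.1, 35.9 and 31 CPM, 10.1, 7.36 and 6.36 CPM and 4.89, 5.71 and 2.96 CPM.

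Genes that cytokines are known to induce in islets had low levels. Nos2, inducible nitric oxide synthase, had 4.97, 3.63 and 3.09 CPM. The chemokines Cxcl10 and Ccl2 had 4.93, 3.24 and 3.85 CPM and 3.32, 2.81 and 2.87 CPM, and Il6 had 0.510, 0.919 and 0.313 CPM, with a Poisson interval of 0.404 to 0.784 CPM. Of the cell cycle genes, Ccnd2, the main D cyclin of mouse beta cells, had 517, 476 and 479 CPM, whereas the marker of dividing cells Mki67 had 1.28, 2.13 and 0.716 CPM and Top2a 4.29, 5.03 and 2.64 CPM. Both of these were lowest in replicate 4.

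Long noncoding RNAs on the list summed to 275, 283 and 285 CPM. The highest per kilobase was 2900097C17Rik, with 161, 181 and 165 CPM, then Malat1, a nuclear RNA, with 59.5, 54.2 and 61.2 CPM. Meg3 and Rian, transcripts of an imprinted locus, had 4.38, 3.19 and 4.75 CPM and 23.9, 16.6 and 24.1 CPM. The kit did not record the strand, so reads of antisense or overlapping genes cannot be told apart. The 81 cytosolic ribosomal protein genes, a list made by symbol after values were seen, include related genes such as Rpl7l1 and Rpl22l1. They summed to 4635, 4669 and 4458 CPM, or 0.459% of the counts. Per kilobase Rpl41 was highest at 249, and Rplp0 had 185. By mean CPM Rplp0 was highest at 252, and Rpl34, Rpl30 and Rps27 were lowest at 2.95, 0.898 and 0.475. How reads with several matches were handled is not known, so these levels and the sum are uncertain to that extent. Y-linked transcripts were counted in all 3 libraries, and Ddx3y, for example, had 51.4, 55.4 and 52.3 CPM.

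The defining hormone genes of each endocrine cell type were present, so the label of islets was met. Beta cell markers, 17 of 17 with a row, summed to 355629, 347842 and 372256 CPM. Alpha cell markers, 11 of 11, summed to 38973, 37665 and 39543 CPM. PP cell markers, 5 of 6, summed to 10691, 11609 and 11752 CPM, and delta cell markers, 9 of 9, to 2610.3, 2681 and 2550.5 CPM. The ratio of the highest to the lowest library was 1.07, 1.05, 1.10 and 1.05 in these lists. Some members are also made by other islet cells, among them Ttr and Tmem27 on the alpha list, at 969, 981 and 1029 CPM and 1218, 1182 and 1219 CPM, and Pcsk1 on the delta list. Loxl4 and Pou3f4 on the alpha list were low, at 0.382 ± 0.140 and 1.05 ± 0.344 CPM (SD, n = 3 each).

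Markers of vascular, immune and nerve cells had lower sums than the beta, alpha, PP and delta cell lists, though above the 3.02, 6.24 and 5.87 CPM of the epsilon list for macrophage, endothelial and neural markers. Macrophage markers, 18 of 18, summed to 294, 311 and 283 CPM, led by Lyz2, lysozyme, at 85.9, 86 and 81.3 CPM and the complement gene C1qa at 56.3, 60.6 and 60.01 CPM. Endothelial markers, 17 of 18, summed to 156, 149 and 159 CPM, with Eng at 23.9, 21.3 and 21.9 CPM, Kdr, a receptor of vascular endothelial growth factor, at 20.2, 18.4 and 22.7 CPM and Pecam1 at 5.57, 7.45 and 7.34 CPM. Schwann and neural markers, 10 of 11, summed to 239, 257 and 216 CPM, of which Ncam1 and Mbp, at 106, 119 and 97.7 CPM and 83.4, 89.2 and 87.4 CPM, made most, and endocrine cells also express Ncam1. The Schwann cell factor Sox10 had 3.36, 4.74 and 1.43 CPM. The lymphocyte list had a row for 2 of 14 markers, Lck and Cd79a, which summed to 6.46, 6.87 and 5.96 CPM. None of the 6 red blood cell markers had a row, and of 6 adipocyte markers 2 did, with sums of 1.32, 2.23 and 2.15 CPM.

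Ductal markers, 15 of 17, summed to 1418, 1257 and 1183 CPM. Keratins and Epcam made up much of that sum, with Krt7 at 397, 379 and 387 CPM, Epcam at 187, 180.4 and 184 CPM and Krt18 at 164, 159 and 150.3 CPM, and mouse endocrine cells express them too. Genes more particular to ducts had low levels. Krt19 had 7.65, 3.53 and 2.46 CPM, Sox9 the levels given above, and Car2 0.340, 0.145 and 0.0448 CPM. Spp1, osteopontin, had 344, 249 and 176 CPM, highest in replicate 1 and lowest in replicate 4.

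**Figure D4:**
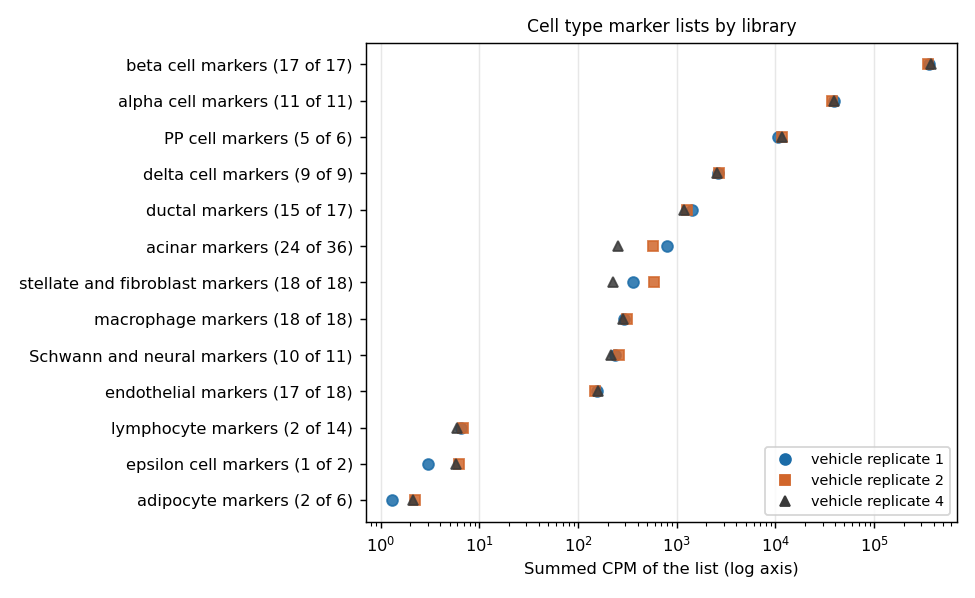
Summed CPM (x axis, log scale) of 13 lists of cell type markers, with the number of members in the table of those listed in brackets and 1 point for each of the 3 vehicle libraries. The points of acinar markers, at 802, 568 and 256 CPM, and of stellate and fibroblast markers, at 360.5, 594 and 225 CPM, are spread, while those of beta and alpha cell markers nearly coincide.

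Acinar markers set the libraries apart. Of 36 listed, 24 had a row, and they summed to 802 CPM in replicate 1, 568 CPM in replicate 2 and 256 CPM in replicate 4, a ratio of 3.13 between the highest and the lowest. Cela1, an elastase, had 133, 86.8 and 53 CPM. Prss2, a trypsinogen, had 114, 82 and 20.6 CPM, and Ctrb1, a chymotrypsinogen, had 82.2, 62 and 19.5 CPM. Cel, the bile salt-activated lipase, had 36.3, 18.5 and 9.18 CPM and Clps, colipase, 18, 13.5 and 1.03 CPM. All 24 members were lowest in replicate 4, and 23 followed the order of the sum. Among all 8354 genes at 10 CPM or more, 49.3% were lowest in replicate 4 and 20.5% had that order. The exception was Bhlha15, a factor of secretory cells, at 92.4, 92.9 and 85.5 CPM. Reads of the trypsin and elastase families may be shared between near-identical copies, so the level of a single member, such as Try4 or Try5, is uncertain. The list as a whole held 0.0542% of the counts on average.

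Stellate and fibroblast markers moved in another order. They summed to 360.5 CPM in replicate 1, 594 CPM in replicate 2 and 225 CPM in replicate 4, a ratio of 2.64. Col1a1, a chain of type I collagen, had 53.6, 95 and 18 CPM and Col3a1, of type III collagen, 65.2, 129 and 36.5 CPM. Sparc, a matrix protein, had 86.8, 119 and 73.4 CPM, and Fn1, fibronectin, had 18, 26.8 and 3.31 CPM. Pdgfrb, a receptor of pericytes and stellate cells, had 27.8, 41.4 and 25 CPM. Of the 18 members 17 were highest in replicate 2, against 45.3% of the 8354 genes, 17 were lowest in replicate 4, and 16 had the order of the sum, against 28.8%. Their part in other differences between the libraries was not tested.

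Further lists were made after this order had been seen, so their counts are a description only. Of 26 matrix genes, 25 had the order of replicate 2 over 1 over 4, with sums of 668, 975 and 428 CPM. Sparc, Col3a1, Col1a1, Col1a2, Col6a1, Col6a2 and Fn1 are on the stellate list as well, so the 2 lists are not independent. Over all genes 27.9% had this order, and 28.8% of those at 10 CPM or more. All 17 genes of nerve fibres and neural peptides had the order too, with sums of 179, 216 and 99.6 CPM. Vip, the gene of vasoactive intestinal peptide, was the highest of them per kilobase and had 64.9, 86.4 and 29.5 CPM. Of 27 genes of glycolysis and the response to hypoxia, 22 had the order, with sums of 4092, 4622 and 3732 CPM, among them Ldha, Gapdh at 474, 527 and 399 CPM and Aldoa at 842, 964 and 779 CPM. Actb, β-actin, often used to scale RNA, had 357, 415 and 309.6 CPM in the same order.

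Across all genes the libraries were close. The median coefficient of variation was 7.95% over all genes and 5.32% over the 8354 genes at 10 CPM or more. It was 39.7% below 1 CPM, where counting alone gives 29.3%, and 13.8% between 1 and 10 CPM, where counting gives 10.8%. Between 10 and 100 CPM it was 5.70% against 3.95% from counting, between 100 and 1000 CPM 3.69% against 1.71%, and at 1000 CPM or more 3.03% against 0.561%. With counting error taken out, the common biological coefficient of variation was 8.49% (edgeR).

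Replicates 1 and 2 were the closest pair. Their log2 ratios over genes at 10 CPM or more had a standard deviation of 0.147, against 0.193 for replicates 1 and 4 and 0.209 for replicates 2 and 4. Genes that differed by more than 2-fold numbered 6 in replicates 1 and 2, 24 in replicates 1 and 4 and 35 in replicates 2 and 4. Chi-square over the counts was 4.07, 6.56 and 8.05 times its degrees of freedom in these pairs, so no column repeats another within sampling noise. This does not show that they came from separate animals or cultures. Long transcripts differed a little more than short ones. With genes split into 5 equal parts by transcript length, in the part with the longest transcripts, the median log2 ratio to the mean of the other libraries was −0.04, 0.12 and −0.08, against 0.01, −0.01 and 0.00 in the part with the shortest.

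**Figure D5:**
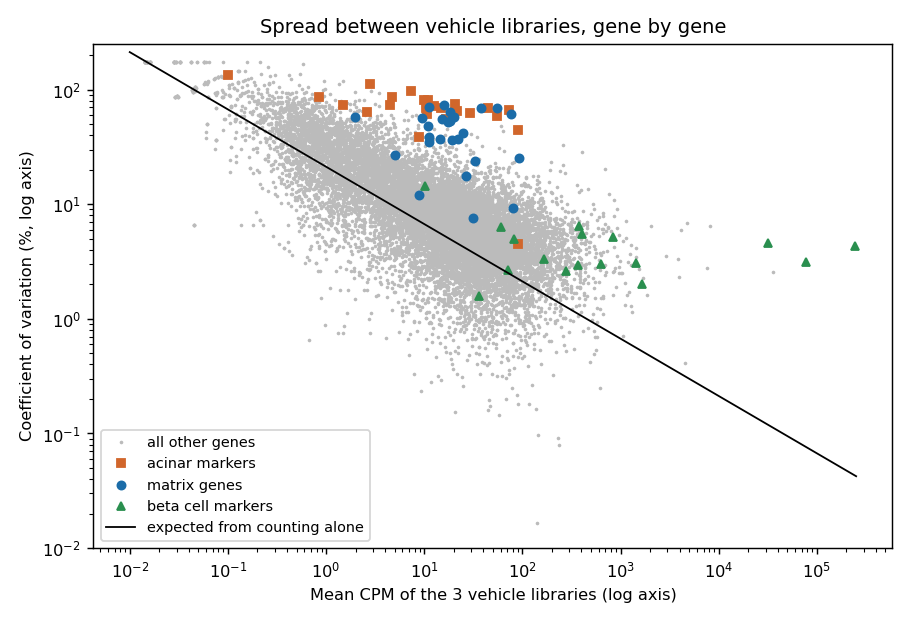
Coefficient of variation over the 3 vehicle libraries (percent, y axis, log scale) against mean CPM (x axis, log scale), 1 point per gene, with acinar markers as squares, matrix genes as circles, beta cell markers as triangles and the spread expected from counting alone as a line. Most acinar and matrix genes lie above most genes of their level. Among those at 10 CPM or more the highest is Clps at 81.1%, and below 10 CPM Reg2 reaches 134%. Ins2 varied by 4.34%.

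Acinar and matrix genes were frequent among the most variable genes. The 10 highest among genes at 10 CPM or more were Dmbt1, Clps, Try4, Fn1, Cpa1, Fbn1, Sycn, Col1a1, Col1a2 and Try5, with coefficients of variation of 84.9% to 69.2%. Dmbt1, a secreted scavenger receptor of epithelia, had 14.5, 17.9 and 0.403 CPM. Fbn1, fibrillin 1, had 8.55, 19.8 and 4.88 CPM. Of the 100 most variable genes 90 were lowest in replicate 4, against 49.3% of the 8354 genes. Of the 100, 35 were in the acinar, stellate or matrix lists and the rest were not, and the matrix list was made after values were seen. They included 13 of the 14 acinar markers and 10 of the 10 stellate and fibroblast markers that reached 10 CPM. No member of the beta, alpha, delta and PP cell lists, the granin list or the transcription factor list was among them. These lists had 17, 8, 6, 3, 17 and 35 members at 10 CPM or more. The 100 were drawn from the 8354 genes after unnamed models and pseudogenes were passed over. An absence from lists of this size is therefore near the share over all genes.

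The genes most raised in replicates 1 and 2 were acinar and matrix genes, and those of replicate 4 were neither. In replicate 1 they were Try4, Cel, Cela3b, Cela2a and Clps, by 1.70 to 1.31 on the log2 scale over the mean of the others. In replicate 2 they were Fbn1, Col1a2, Col1a1, Col3a1 and Fn1, by 1.56 to 1.33. In replicate 4 the rises were smaller, 0.49 to 0.45, in A1cf, Selt, Ppcs, Hdac10 and Lsm14b. A1cf, a cofactor of RNA editing, had 11.3, 12.3 and 16.5 CPM.

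The lowest coefficients of variation were below what counting alone gives. Among 8354 genes with 3 libraries each, some coefficients can fall this low through sampling. The genes named are therefore not shown to be steadier than others. Maged2 was the first, at 140.4, 140.4 and 140.5 CPM, a coefficient of 0.0164% where counting alone gives 1.79%. Selk, Rnf14, Usp19, Bhlhb9, Commd3, Sf3b1, Rmnd5b and Morf4l1 were among those that followed, at 0.0796% to 0.180%.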

How the data were processed

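Vehicle islets were the 3 libraries whose labelled agent is vehicle, and 9 columns of other groups were not described. The deposited values are raw counts of reads per gene symbol, 1 column per library, neither normalized nor pooled. The library kit was SMARTSeq v4 Ultra Low Input, per the labels' protocols. It amplifies cDNA and does not mark the strand. Of tools, STAR, featureCounts, Subread, FastQC and DESeq2 appear in the submitters' processing notes, with no version or role, beside build mm10. The sources used here do not give the annotation, the handling of reads with several matches or any filter. In at least 3 of the 12 libraries, every one of the 14089 genes was at 0.503 CPM or more. The level of a gene with no row is not known.

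CPM were computed as counts divided by the library total of 20664596 to 23519151, and per kilobase with the APPRIS principal transcript of GENCODE M21 on GRCm38, the assembly of mm10 (the longest where there were several, and the longest of all where there was none). By symbol 13589 genes were matched, 423 by a RefSeq synonym and 77 not. Nothing was tested between groups, since there was 1 group. SDs are over 3 libraries. Poisson intervals (95%) and the limit from 3 counts cover counting error only. The common biological coefficient of variation came from edgeR 4.0.16 in R 4.3.3 with an intercept-only design, tested on simulated data. The other values used pandas 2.3.3.

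The members and the 28 gene lists were chosen with earlier results of these data known. Named were the 20 highest genes by CPM and per kilobase, the 10 most and 10 least variable at 10 CPM or more (passing over unnamed models and pseudogenes), the 5 most raised per library and the most abundant of each list, some of which are not reported here. The lists of ribosomal, matrix, nerve and glycolysis genes, the 3 promoter motifs, and Rn45s, Actb, Gapdh, Aldoa and Vip were chosen after values were seen, as were list members of lower rank that are named. Alternatives were TMM and DESeq2 1.42.0 size factors, a total without Ins1 and Ins2, a count filter, union exon length and leaving out each library.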

Additional observations from a re-analysis of the deposited data

How the results depend on the processing

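Of 209 values computed under alternatives, 187 stayed within 1 SD of the reported value or, for counts of genes, within 1.5 times. Leaving out each library in turn kept all 90 values within these bounds. For levels and sums this outcome was fixed in advance, because leaving out 1 of 3 libraries cannot move a mean by 1 SD. It therefore says nothing about how firm those values are, and their ranges are the better guide. Genes at 1, 10, 100 and 1000 CPM or more then numbered 12408 to 12530, 8293 to 8404, 1269 to 1303 and 38 to 39, and the share of the 10 most abundant genes was 41.4% to 42.7%. The median coefficient of variation was 5.86% to 7.13% and the common biological one 6.26% to 10.7%, lowest without replicate 4. The acinar sum was 412 to 685 CPM and the stellate sum 293 to 477 CPM. All 20 genes highest per kilobase stayed, and 17 of 20 did with the union of exons. The values that moved, 22 of 27, did so with a total without Ins1 and Ins2, which multiplies every CPM by 1.46, 1.45 and 1.5 in replicates 1, 2 and 4 and gave 2134 genes at 100 CPM or more and 65 at 1000 CPM or more. No paired analysis was possible because 1 group was described and nothing was tested between groups. Depth limits levels under about 1 CPM, and 3 libraries limit every SD.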
